A study of Homo sapiens with 12 samples.

Results

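The enzymes that carry glycolysis from the triose phosphates to pyruvate were followed in cancer cells that had evolved under hydroxychloroquine (HCQ), a lysosomotropic antimalarial drug that blocks autophagy. Genes were chosen by symbol, as enzymes of this stretch of the pathway: GPI, TPI1, GAPDH, GAPDHS, PGK1, PGAM1, BPGM, PKM and PKLR, 9 of the 28278 symbols in the count table. Of these, 8 had at least 1 count in some pool and the same 8 passed the filter on low counts in both lines, while PKLR had no count anywhere. In the lines labelled OVCAR3 (ovarian cancer) and CCL218 (colorectal cancer, derived from HT29), transcripts of GPI, TPI1, PGK1, PGAM1 and PKM were above the range of the control pools in every HCQ-evolved pool. The changes of GPI, TPI1, PGK1 and PKM passed the test in CCL218, and none passed in OVCAR3.

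Polyadenylated RNA was sequenced from 12 pools in 4 groups of 3: control OVCAR3, HCQ-evolved OVCAR3, control CCL218 and HCQ-evolved CCL218. HCQ-evolved cells had received 15 pulses of HCQ, each lasting 48 h and followed by recovery in drug-free medium, and were collected at passage 15 after 7 days without drug. Control cells came from a paired plate passaged without drug and were at passage 19, so treatment, plate and passage number cannot be told apart. Each pool combined the wells from the left (L), middle (M) or right (R) part of 1 plate, so p-values measure the spread between plate positions and not between independently evolved plates. RNA was bulk, so a change in the number of cells that express a gene and a change in RNA per cell cannot be told apart.

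Glycolysis splits glucose into a pair of triose phosphates, oxidises them, and recovers ATP on the way to pyruvate. Glucose-6-phosphate isomerase (GPI) acts in the upper part of the pathway. Triose phosphate isomerase (TPI1), glyceraldehyde-3-phosphate dehydrogenase (GAPDH, with the sperm isoenzyme GAPDHS), phosphoglycerate kinase (PGK1), phosphoglycerate mutase (PGAM1, and bisphosphoglycerate mutase BPGM on a side path) and pyruvate kinase (PKM, with the liver and red cell isoenzyme PKLR) act below the split. Tumour cells commonly express these enzymes at high levels, and several of the genes are known targets of the hypoxia-inducible factors, which bind a short core motif in promoters.

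That core, ACGTG or GCGTG, was searched on both strands of each RefSeq promoter of GRCh38.p14, from 250 bases before to 50 bases after the annotated start, together with the E-box CACGTG, which overlaps ACGTG. At least 1 core lay in the promoters of 7 of the 9 genes, all but TPI1 and PGAM1, against 48.4% of all 35116 promoters of that length. ACGTG was present in 21.4% of all promoters, GCGTG in 36.5% and CACGTG in 7.3%. The PGK1 promoter held 3 ACGTG cores and 1 GCGTG core. Its 250 bases before the start (chrX:78103998-78104247, plus strand) are shown because PGK1 had the largest fold change of the 8 genes in both lines, with the cores in capitals.
PGK1: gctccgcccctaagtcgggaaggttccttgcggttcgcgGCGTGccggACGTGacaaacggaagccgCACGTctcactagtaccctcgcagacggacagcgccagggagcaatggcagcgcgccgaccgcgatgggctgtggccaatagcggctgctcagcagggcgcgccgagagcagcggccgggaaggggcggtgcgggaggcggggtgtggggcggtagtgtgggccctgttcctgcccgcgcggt
The 3 marked runs before the start of PGK1 began at -211, -202 and -183, and the other one lay at 28 bases after it.

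The other expressed genes with 1 marked run are shown as that run with 10 bases on each side, written 5′ to 3′ on the strand of the gene, so that the letters around it can be compared between genes that were higher and genes that were not. The stretches lay at chr19:34364820-34364844 for GPI, chr12:6535173-6535198 for GAPDH and chr7:134646796-134646820 for BPGM, all on the plus strand, and at chr15:72231164-72231188 on the minus strand for PKM.
GPI: actgcctgtaACGTGgaaggtgttc
GAPDH: tctgcggggtCACGTGtcgcagagga
BPGM: aggacctgccCACGTctggttcagg
PKM: acagcagctgCACGCgccgtggctc
GAPDH held an E-box, which reads ACGTG on either strand, and BPGM held ACGTG on the opposite strand. In PKM, GCGTG lay on the opposite strand, 12 bases after the start. A core was thus present both in genes above and in genes at or below the control level in HCQ-evolved cells, and TPI1 and PGAM1, both above it, had none in this window. The RefSeq starts of GPI, GAPDH and PGAM1 differ from the start of the GENCODE transcript used for their length, so the window is only one of several possible promoters of these genes.

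Libraries held 31147822 to 59965861 counts, and TMM normalization factors ran from 0.869 to 1.09. Levels are given as CPM, counts scaled to the TMM-normalized size of each library. A ± on a CPM level is the SD of the 3 pools of the group. Markers agreed only in part with the label OVCAR3. Of 12 Müllerian and ovarian markers, SOX17 had no count in any pool, and ESR1, EMX2 and CDH6 reached at most 0.103 CPM. The summed level of the 12 was 397 to 666 CPM in control and 692 to 878 CPM in HCQ-evolved pools labelled OVCAR3, and 286 to 523 and 411 to 482 CPM in those labelled CCL218, with KLK6 alone at 217 to 797 CPM. MUC16, at 13.0 to 50.1 CPM in pools labelled OVCAR3 against 3.66 to 14.3 CPM in CCL218, and WFDC2, at 11.9 to 42.3 against 4.48 to 13.0 CPM, were mostly higher under the ovarian label. MSLN of the same list went the other way, at 2.21 to 18.3 CPM in pools labelled OVCAR3 against 46.45 to 128 CPM in CCL218. Between the controls its log2 difference, CCL218 minus OVCAR3, was 2.16 (edgeR adjusted p = 0.030). Of 14 intestinal markers, LGALS4 was at 644 to 860 CPM in control and 133 to 491 CPM in HCQ-evolved pools labelled OVCAR3, and at 731 to 1371 CPM in CCL218. Summed intestinal markers ran from 1123 to 1414 CPM and from 297 to 900 CPM in control and HCQ-evolved OVCAR3 pools, and from 1354 to 1919 and 1545 to 1616 CPM in CCL218. CDX2 was higher in every pool labelled CCL218, at 21.2 to 71.3 CPM against 0.804 to 13.7 CPM. Beside the changes of the enzymes in CCL218, edgeR called 4 of 10 tested intestinal markers higher and 0 lower, against 3.82% and 2.64% of all genes. On the log2 scale CDH17 rose by 3.77, GPA33 by 2.86, CDX2 by 1.54 and MUC13 by 1.37. Estimates were below 0 for 3 of the 10, VIL1 (-0.023), LGALS4 (-0.42) and TFF3 (-0.76). In OVCAR3 edgeR called 0 of 10, against 0.647% higher and 1.21% lower of all genes. There 7 of the 10 estimates were below 0, with a median of -0.86. An unadjusted p under 0.05 was found for 3, VIL1, HNF4A and FABP1, all below 0. Line names below are therefore labels only. Of 11 stromal and leukocyte markers, 7 stayed under 1 CPM in every pool, and the summed level was 1326 to 2783 CPM, nearly all of it LYZ. CD68, a lysosomal membrane protein of macrophages and other cells, rose from 12.7 ± 1.42 to 50 ± 1.82 CPM in CCL218 (log2 fold change 1.98, adjusted p = 0.00102), and was at 15.0 ± 2.77 and 35.7 ± 7.83 CPM in OVCAR3 (adjusted p = 0.0510). By whole transcriptome, the pool closest to control CCL218 L was control OVCAR3 L, the one closest to control OVCAR3 M was control CCL218 R, and HCQ-evolved OVCAR3 R was closest to control OVCAR3 M. The part of these differences in the results below was not tested.

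All tests below are edgeR quasi-likelihood F tests with Benjamini-Hochberg adjustment over every gene tested, with a threshold of 0.05. An exact permutation test of 3 against 3 pools cannot go below a two-sided p of 0.1. In CCL218, 4 of the 8 genes tested rose and 0 fell, against 3.82% and 2.64% of the 12241 genes tested. In OVCAR3, 0 of 8 were called in either direction, against 0.647% called higher and 1.21% called lower among 12204 genes. Of the same 8 genes, 5 had an unadjusted p under 0.05 in OVCAR3. The share of all genes with such a p is not given, for these or the other lists. Counts by unadjusted p therefore only describe the genes counted. DESeq2 called 5 of the 8 genes higher in OVCAR3, where it called 4.44% of all genes higher, and limma voom called 1, PGK1, where it called 0.729%. Every HCQ-evolved pool was above every control pool for 5 of 8 genes in each line, against 13.0% of all genes in OVCAR3 and 18.6% in CCL218. Every HCQ-evolved pool was below every control pool for 1 of 8 genes in each line, BPGM in OVCAR3 and GAPDHS in CCL218, against 12.7% and 17.3% of all genes. The median log2 fold change of the 8 genes was 0.78 in OVCAR3 and 0.69 in CCL218, and over all genes tested it was 0.016 and -0.017.

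**Figure D1:**
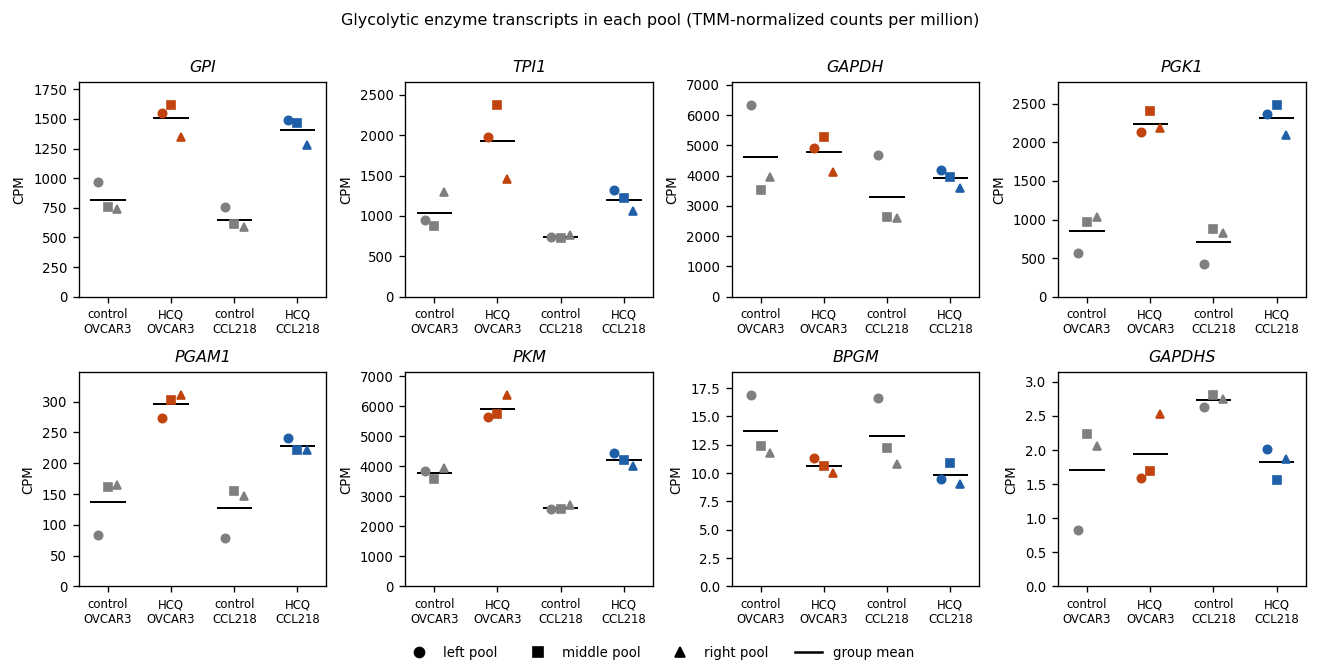
CPM of 8 enzyme genes (y axis, from 0, a separate scale in each panel) in the 3 pools of each group, with the plate position as the symbol and the group mean as a bar. GPI, TPI1, PGK1, PGAM1 and PKM are above the controls in all 3 HCQ-evolved pools of both lines, while GAPDH overlaps and its left control pool, at 6328 and 4683 CPM, is the highest of its line.

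PGK1, which makes the first ATP of the lower pathway, showed the largest change. In control OVCAR3 it was at 569, 973 and 1027 CPM in the L, M and R pools, and in HCQ-evolved OVCAR3 at 2135, 2399 and 2189 CPM. In control CCL218 it was at 426, 874 and 829 CPM, and in HCQ-evolved CCL218 at 2372, 2480 and 2097 CPM. The lowest HCQ-evolved pool was above the highest control pool in both lines, and the left control pool was the lowest of its group in both. On the log2 scale the change was 1.70 ± 0.28 in CCL218 (estimate ± standard error for log2 changes, here and below). It passed at an adjusted p of 0.0172. In OVCAR3 the change was 1.40 ± 0.28, with an adjusted p of 0.0529. Without the left control pool it was 1.43 in CCL218 (adjusted p = 1.8e-05) and 1.16 in OVCAR3 (adjusted p = 0.151). Those fits called 13.6% and 0.00% of all genes higher. The gene lies at chrX:77910739-78129295 (hg38, plus strand, GENCODE 44) and overlaps ATP7A, the intronless PGAM4 on the other strand and a pseudogene. This interval covers all transcript models of the gene, and the promoter shown above lies inside it.

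GPI, which interconverts glucose 6-phosphate and fructose 6-phosphate, had the smallest adjusted p of the 8 genes in CCL218. Control CCL218 pools were at 755, 610 and 588 CPM, and HCQ-evolved pools at 1488, 1464 and 1280 CPM. In OVCAR3, control pools were at 968, 754 and 737 CPM and HCQ-evolved pools at 1549, 1616 and 1347 CPM. Here the left control pool was the highest of its group in both lines, opposite to PGK1, and the groups were still apart. It rose by 1.11 ± 0.15 on the log2 scale in CCL218 (adjusted p = 0.00891), and in OVCAR3 the estimate was 0.90 ± 0.20 (adjusted p = 0.0708). GPI lies at chr19:34359480-34402413 on the plus strand and overlaps a protein-coding gene without a symbol on the same strand. Reads shared with it were not measured.

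TPI1, which interconverts the triose phosphates, was steady in control CCL218, at 735, 733 and 766 CPM. HCQ-evolved CCL218 pools were at 1326, 1225 and 1059 CPM, all above the controls. TPI1 thus rose by 0.69 ± 0.13 on the log2 scale (adjusted p = 0.0301), a call that was lost in the fit of all 12 pools (adjusted p = 0.0821). In OVCAR3 the controls were more scattered, at 948, 873 and 1292 CPM, and HCQ-evolved pools were at 1972, 2371 and 1453 CPM. The R pools of OVCAR3 were close, 1453 against 1292 CPM, and the log2 estimate of 0.91 ± 0.26 did not pass (adjusted p = 0.135). TPI1 lies at chr12:6867119-6870948 on the plus strand and overlaps SPSB2 on the minus strand.

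PKM, which encodes the muscle-type pyruvate kinase isoforms and yields pyruvate and ATP at the last step, rose in CCL218. Its control pools were at 2566, 2592 and 2699 CPM and its HCQ-evolved pools at 4437, 4196 and 4016 CPM, a log2 increase of 0.68 ± 0.13 (adjusted p = 0.0289). Control OVCAR3 was at 3834, 3589 and 3929 CPM and HCQ-evolved OVCAR3 at 5642, 5741 and 6381 CPM. The OVCAR3 groups were also apart, with a log2 estimate of 0.67 ± 0.22 (adjusted p = 0.176). Counts per gene (chr15:72199029-72231819, minus strand) do not separate the PKM1 and PKM2 splice forms. PKLR (chr1:155289293-155301438, minus strand) had 0 counts in all 12 pools, and 3 counts would have been 0.050 to 0.0963 CPM, which covers counting error only.

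PGAM1, which moves the phosphate group of phosphoglycerate, was at 83.6, 161 and 165 CPM in control OVCAR3 and at 274, 303 and 311 CPM in HCQ-evolved OVCAR3. Control CCL218 was at 78.7, 156 and 147 CPM and HCQ-evolved CCL218 at 241, 221 and 221 CPM. As with PGK1, the left control pool was about as far below the others in each line, and the groups did not overlap. The log2 estimates, 1.13 ± 0.28 in OVCAR3 (adjusted p = 0.0975) and 0.84 ± 0.25 in CCL218 (adjusted p = 0.0954), did not pass. Across all genes, CCL218 pools of the same plate position deviated together. PGAM1 itself did not at the left position, where its control pool was the lowest and its HCQ-evolved pool the highest of the group. With position as a replicate block the CCL218 change of PGAM1 was 0.90 (adjusted p = 0.0254). Without the left control pool the estimates were 0.86 in OVCAR3 (adjusted p = 0.168) and 0.58 in CCL218 (adjusted p = 0.00132). Those fits called 0.00% and 13.6% of all genes higher. The block called 5 of the 8 genes higher in CCL218, where it called 7.82% of all genes higher. PGAM1 lies at chr10:97426191-97433444 on the plus strand.

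BPGM, a close relative of PGAM1 that makes the bisphosphoglycerate that lowers the oxygen affinity of haemoglobin, was low in all groups. Control OVCAR3 was at 16.9, 12.4 and 11.7 CPM and HCQ-evolved OVCAR3 at 11.3, 10.6 and 10 CPM, which were apart. Control CCL218 was at 16.7, 12.2 and 10.8 CPM and HCQ-evolved CCL218 at 9.47, 10.9 and 9.05 CPM, which overlapped. Its log2 estimates were below 0, at -0.34 ± 0.20 in OVCAR3 (adjusted p = 0.460) and -0.43 ± 0.19 in CCL218 (adjusted p = 0.214). Without the left control pool they were -0.19 (adjusted p = 0.835) and -0.24 (adjusted p = 0.209). BPGM lies at chr7:134646811-134679816 on the plus strand.

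GAPDH, the dehydrogenase often used as a reference transcript, did not separate the groups. Control OVCAR3 was at 6328, 3536 and 3971 CPM and HCQ-evolved OVCAR3 at 4910, 5287 and 4132 CPM. Control CCL218 was at 4683, 2641 and 2601 CPM and HCQ-evolved CCL218 at 4174, 3959 and 3606 CPM. In both lines the left control pool was above every HCQ-evolved pool, and the other control pools were below all of them. The log2 estimate for OVCAR3 was 0.073 (95% interval -0.58 to 0.72, adjusted p = 0.929), and that for CCL218 was 0.24 (95% interval -0.36 to 0.83, adjusted p = 0.576). Without the left control pool the CCL218 change was 0.57 (adjusted p = 0.0030), and that of OVCAR3 was 0.34 with an adjusted p above the threshold. GAPDH lies at chr12:6534512-6538374 on the plus strand and overlaps a long noncoding RNA gene on the minus strand. Its many processed pseudogenes, 65 of them named after it, can take or share its reads, which was not measured here.

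GAPDHS, the isoenzyme of the sperm tail, had only 32 to 151 counts per pool. Control OVCAR3 was at 0.826, 2.23 and 2.06 CPM and HCQ-evolved OVCAR3 at 1.59, 1.70 and 2.53 CPM, which overlapped. Control CCL218 was at 2.63, 2.81 and 2.75 CPM and HCQ-evolved CCL218 at 2.01, 1.57 and 1.87 CPM, which were apart. Neither estimate passed, at -0.59 ± 0.20 on the log2 scale in CCL218 (adjusted p = 0.120) and 0.20 ± 0.43 in OVCAR3 (adjusted p = 0.864). At chr19:35533455-35545319 on the plus strand the gene overlaps TMEM147-AS1 on the minus strand, and the strand setting of the counting is not given in the sources used here.

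**Figure D2:**
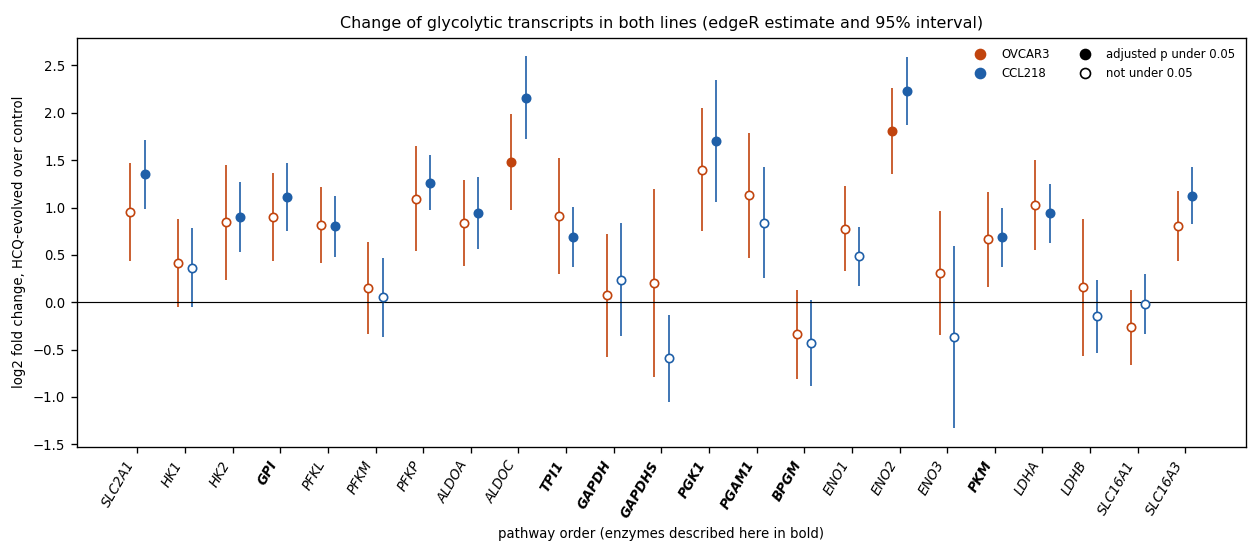
Log2 fold change of HCQ-evolved over control cells (y axis) for glycolytic genes in pathway order, with 95% intervals, OVCAR3 in orange and CCL218 in blue, filled where the adjusted p was under 0.05. PGK1 is the highest of the genes in bold in both lines, at 1.40 and 1.70, and GAPDH and BPGM have intervals that include 0 in both.

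For GAPDH, BPGM, GPI, PGK1 and PGAM1 the left control pool lay outside the other control pools, by a similar ratio in both lines. Against the mean of the M and R controls, it held 1.69 times (OVCAR3) and 1.79 times (CCL218) as much GAPDH, 1.40 and 1.45 times as much BPGM, and 1.30 and 1.26 times as much GPI. It held 0.569 and 0.50 times as much PGK1, and 0.513 and 0.521 times as much PGAM1. PKM was at 1.02 and 0.97 times and TPI1 at 0.876 and 0.981 times. The left pool lay between the others for TPI1 in both lines and for PKM in OVCAR3. GAPDHS went apart, at 0.385 times in OVCAR3 and 0.946 times in CCL218. Across all genes, the deviations of the left control pools from their group means correlated between the lines at r = 0.88, those of the M pools at r = 0.855 and those of the R pools at r = 0.28, where the pools of a group share the mean that was removed.

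These pools set the size of several changes. At the same plate position, HCQ-evolved over control PGK1 was 3.75, 2.46 and 2.13 times in OVCAR3 (L, M, R) and 5.57, 2.84 and 2.53 times in CCL218. PGAM1 was 3.28, 1.89 and 1.88 times in OVCAR3 and 3.06, 1.42 and 1.51 times in CCL218. GAPDH was 0.776, 1.495 and 1.04 times in OVCAR3 and 0.891, 1.499 and 1.39 times in CCL218. PGK1, PGAM1, GPI, TPI1 and PKM were above 1 at all 3 positions of both lines. This follows from their groups being apart, under any pairing, and is no further evidence. GAPDH was below 1 at the left position and above it elsewhere. In OVCAR3 the ratios pair pools by plate label only, as deviations of same-position M and R pools from their group means correlated negatively.

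**Figure D3:**
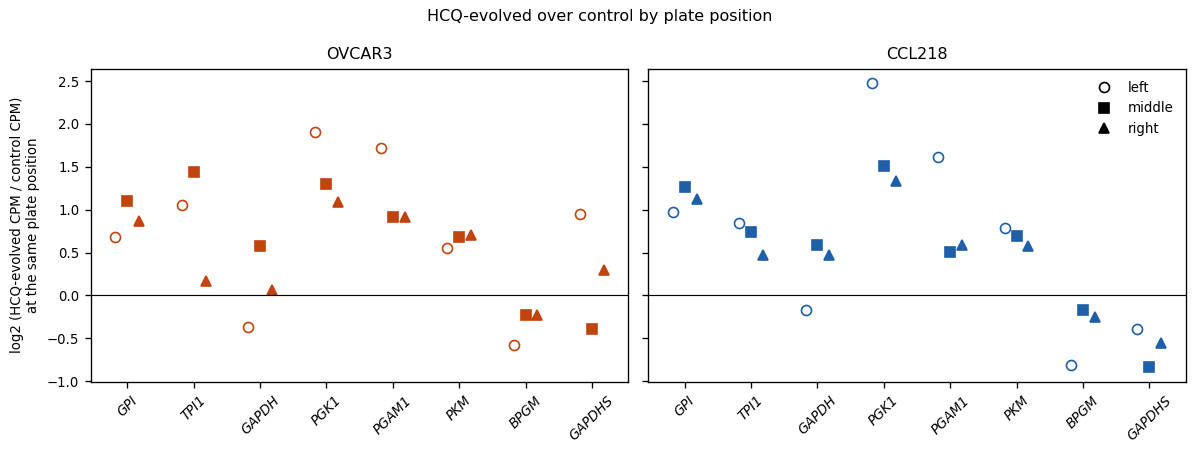
Log2 ratio of HCQ-evolved to control CPM at the same plate position (y axis) for each gene, with OVCAR3 on the left, CCL218 on the right, and open circles for the left position. The left position has the highest PGK1 and PGAM1 ratios and the lowest GAPDH and BPGM ratios in both lines.

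Leaving out single pools changed which genes passed. Without the left control pool, 6 of 8 genes were called higher in CCL218 (GPI, TPI1, GAPDH, PGK1, PGAM1 and PKM), against 13.6% of all genes, and GAPDHS was called lower, against 11.6%. Without the middle control pool, GPI and PGK1 were called, against 2.44% of all genes. GPI alone was called without the R HCQ-evolved pool, against 0.890%. With the R control, the L HCQ-evolved or the M HCQ-evolved pool left out, 0 of the 8 genes were called, where 0.924%, 0.890% and 0.594% of all genes were called higher. In OVCAR3, GPI, TPI1 and PGK1 were called without the R HCQ-evolved pool, against 1.92% of all genes. Without any other single pool 0 were called, where only 0.00% to 0.0743% of all genes were called higher. Each pool also had its own trend of expression with transcript length, with a Spearman correlation across 12211 genes from -0.51 in control CCL218 L to 0.567 in HCQ-evolved OVCAR3 R. With that trend and the trend with GC content entered as an offset, GPI, TPI1, PGK1 and PKM were called higher in OVCAR3, where 5.08% of all genes were. In CCL218 the offset called these and GAPDH, which had a log2 estimate of 0.43 (adjusted p = 0.0365), where 9.62% of all genes were called higher. DESeq2 called 5 of the 8 higher in CCL218, against 9.02% of all genes, and 1, GAPDHS, lower, against 8.72%.

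No difference in response between the lines was detected for any of the 8 genes. In the fit of all 12 pools, 0 of 8 were called for the difference of the changes and 0 had an unadjusted p under 0.05, where 0.872% of 12613 genes were called. DESeq2 and limma voom also called 0 of the 8, against 3.67% and 0.904% of all genes. The change of PKM differed by 0.041 on the log2 scale (CCL218 minus OVCAR3, 95% interval -0.41 to 0.49), which was the narrowest interval of the 8. For PGK1 the difference was 0.32 (95% interval -0.55 to 1.19), and for GAPDHS -0.78 (95% interval -1.81 to 0.26).

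Control cells of the lines were compared next. Of the 8 genes, 0 were called between control CCL218 and control OVCAR3, where 3.42% of all genes were, and 2 had an unadjusted p under 0.05. PKM was lower in control CCL218, at 2619 ± 70.6 CPM against 3784 ± 175 CPM (SD, n = 3), with a log2 difference of -0.53 (edgeR adjusted p = 0.0791). DESeq2 and limma voom each called 1 of the 8 genes, PKM, against 7.34% and 3.58% of all genes. TPI1 had a log2 difference of -0.48 (adjusted p = 0.315), and its control pools were apart as well.

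Per kilobase of the GENCODE 44 canonical transcript (RPKM from the CPM above), the order of levels was the same in both control groups. GAPDH was highest, with a mean of 3589 RPKM in control OVCAR3 and 2575 RPKM in control CCL218, followed by PKM at 1642 and 1136 RPKM and TPI1 at 768 and 551 RPKM. GPI, at 199 and 158 RPKM, and PGK1, at 178 and 148 RPKM, overlapped in both control groups, and all other neighbours in the order were apart. PGAM1 came next at 75.8 and 70.5 RPKM, then BPGM at 7.999 and 7.73 RPKM, GAPDHS at 1.18 and 1.89 RPKM, and PKLR at 0. In HCQ-evolved cells PGK1, at 466 and 481 RPKM, stood above GPI, at 365 and 342 RPKM, with no overlap in either line. The other places in the order were the same. The transcript models of PGK1 and GPI are the longest of the 9, at 4812 and 4125 bases, and which forms were expressed cannot be read from counts per gene.

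Together the 9 genes took 1.05% ± 0.048 of all counts in control OVCAR3 and 1.61% ± 0.029 in HCQ-evolved OVCAR3 (SD, n = 3), a ratio of 1.52. In CCL218 the share was 0.853% ± 0.049 in control and 1.40% ± 0.075 in HCQ-evolved cells, a ratio of 1.64, and the groups were apart in both lines. GAPDH made up 40.3% of this share in control and 28.6% in HCQ-evolved OVCAR3, and 39.8% and 29.4% in CCL218. Counts of PGK1 per count of GAPDH were 0.208 ± 0.103 in control and 0.473 ± 0.050 in HCQ-evolved OVCAR3, and 0.247 ± 0.135 and 0.592 ± 0.030 in CCL218. This ratio was apart in both lines, as were GPI and PKM per GAPDH, while TPI1 and PGAM1 per GAPDH were apart in OVCAR3 and overlapped in CCL218. Within a library such a ratio shows unequal change of the pair and not which of them moved.

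The other enzymes of glycolysis were taken as a list of 18 genes, of which 12 were tested in each line. In CCL218, 6 of the 12 rose and 0 fell, against 3.82% and 2.64% of all genes, with a median log2 fold change of 0.64. ENO2 (enolase, between PGAM1 and PKM) was at 28.1 ± 4.13 CPM in control and 132 ± 10.6 CPM in HCQ-evolved CCL218, a log2 fold change of 2.23. ALDOC, an aldolase that forms the triose phosphates, changed by 2.16, PFKP and PFKL (phosphofructokinase) by 1.26 and 0.80, ALDOA by 0.94 and HK2 (hexokinase) by 0.90. In OVCAR3, 2 of 12 rose and 0 fell, against 0.647% and 1.21% of all genes, with a median of 0.80. They were ENO2, with a log2 fold change of 1.81 (adjusted p = 0.0101), and ALDOC, with 1.48 (adjusted p = 0.0241). ENO1, the main enolase and chosen after its values were seen, was at 1253 ± 101 CPM in control and 1757 ± 92.1 CPM in HCQ-evolved CCL218, with an adjusted p of 0.0763.

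Of 10 genes of glucose and lactate exchange, 5 were tested in CCL218 and 3 rose, against 3.82% of all genes. They were SLC2A1 (the glucose transporter GLUT1) by 1.35, SLC16A3 (the lactate exporter MCT4) by 1.13 and LDHA (lactate dehydrogenase) by 0.94 on the log2 scale. In OVCAR3 0 of 6 were called, against 0.647% called higher and 1.21% lower of all genes, and 3 had an unadjusted p under 0.05. The genes that rose in CCL218 had log2 fold changes of 0.96, 0.80 and 1.03 in OVCAR3, with adjusted p of 0.0799, 0.0521 and 0.0525. No gene was called among the pathways that leave glycolysis. Of all genes, 0.647% were called higher and 1.21% lower in OVCAR3, and 3.82% and 2.64% in CCL218. At these shares, lists this short can hold 0 calls without differing from all genes. Of 8 tested genes of the pentose phosphate pathway, 0 had an unadjusted p under 0.05 in OVCAR3 and 3 in CCL218, with the smallest p for PGLS (-0.58, adjusted p = 0.531) and TALDO1 (-0.46, adjusted p = 0.141). Of 5 genes of serine synthesis from phosphoglycerate and serine use, 1 and 0 had an unadjusted p under 0.05, with the smallest for SHMT1 in OVCAR3 (0.47, adjusted p = 0.211) and PSAT1 in CCL218 (0.27, adjusted p = 0.227). Of 7 genes on triose side branches, 0 and 3 did, with the smallest for GPD2 in OVCAR3 (0.70, adjusted p = 0.425) and TKFC in CCL218 (-0.40, adjusted p = 0.0985).

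Of 5 tested genes of gluconeogenesis, 1 fell in OVCAR3, against 1.21% of all genes. It was PCK1, the cytosolic enzyme that makes phosphoenolpyruvate, with a log2 fold change of -2.34 (adjusted p = 0.0399) from only 2.59 ± 0.644 CPM in controls. In CCL218, 0 of 5 were called, against 3.82% called higher and 2.64% lower of all genes, and 3 had an unadjusted p under 0.05. A list of 18 other hypoxia-inducible genes had a median log2 fold change of 1.08 in OVCAR3 and 1.47 in CCL218. In OVCAR3, 6 of 17 rose and 0 fell, against 0.647% and 1.21% of all genes: BNIP3L, EGLN3, P4HA1, P4HA2, DDIT4 and PFKFB4. In CCL218, 16 of 18 rose and 0 fell, against 3.82% and 2.64% of all genes, from MXI1 at 0.77 to NDRG1, a stress-response gene, at 2.70. PFKFB4, which sets the level of an activator of phosphofructokinase, changed by 1.78 in OVCAR3 and 2.21 in CCL218.

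**Figure D4:**
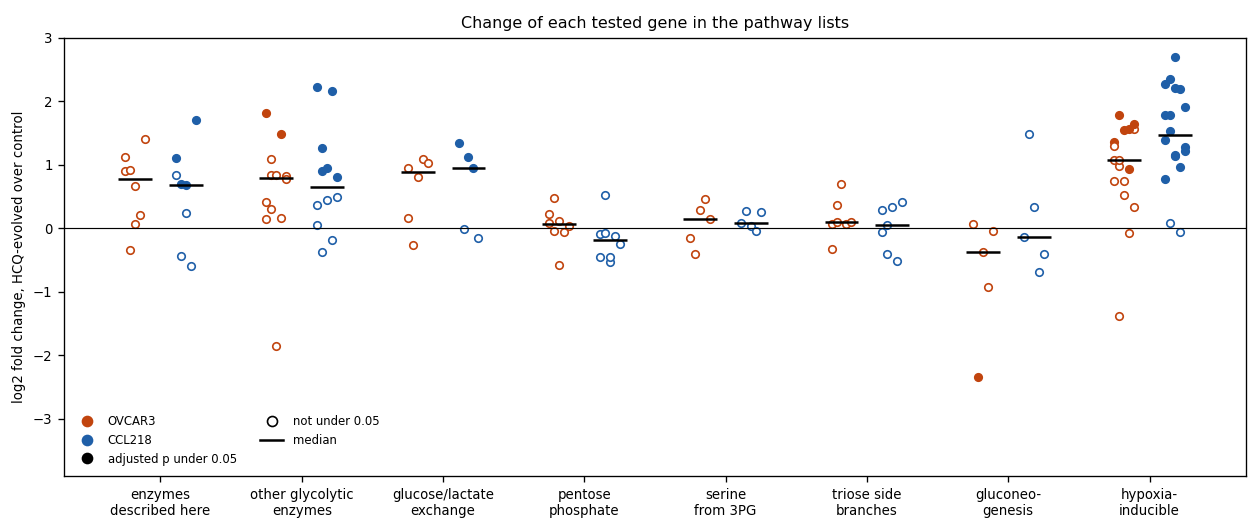
Log2 fold change of HCQ-evolved over control cells (y axis) for every tested gene of 8 lists, OVCAR3 in orange and CCL218 in blue, filled where the adjusted p was under 0.05, with the median as a bar. Medians of the 9-gene list, the other glycolytic enzymes and exchange genes lie between 0.64 and 0.94, those of the pentose phosphate, serine and side branch lists between -0.19 and 0.15.

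By Pearson correlation of log2 CPM over the 12 pools, given as a description over pools that share groups, plates and depth differences, the genes most like GPI were SLC29A4 (r = 0.988), ALDOC (r = 0.984) and ENO2 (r = 0.972). PGK1 was closest to BCL2L2 (r = 0.988), P4HA1 (r = 0.983) and PFKL (r = 0.980), and PKM to ADORA2B (r = 0.983), RHBDL2 (r = 0.978) and DDIT4 (r = 0.977). PGAM1 was closest to CPOX (r = 0.996), VAMP2 and MAP2K1, and TPI1 to MTCH1 (r = 0.982), ILVBL and SAP30. GAPDH went with HCFC1R1 (r = 0.979), RRAS and CRABP2. BPGM was closest to LIMD2 (r = 0.962), KARS1 and MMP25-AS1. For GAPDHS the highest r was 0.861, with MEX3D, followed by DIMT1 and RBBP4.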

How the data were processed

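The authors aligned paired-end reads to hg38 with STAR, removed duplicates and counted reads per gene with featureCounts, and the deposited counts were used as given. Of the low entries, 78.9% of those from 1 to 4 counts were even, and whether a count is a read or a read pair is not given in the sources used here, so the limit of 3 counts may stand for fewer fragments. Members, gene lists and alternatives were chosen with earlier results of these data known. Each line was fitted alone, over genes that reached 1 CPM in 3 or more of its libraries, with edgeR 4.0.16 in R 4.3.3 (TMM, robust quasi-likelihood F test, threshold 0.05). The difference between lines and the comparison of controls came from 1 fit of all 12 libraries. Standard errors were taken from the fold change and F. DESeq2 1.42.0, limma 3.58.1 (voom), other filters and factors, a replicate block, a length and GC offset and leaving out each pool were alternatives. Residuals of same-position pools correlated at 0.565 (L), 0.295 (M) and 0.231 (R) in CCL218, so the numbers pair these pools. In OVCAR3 they correlated at 0.442, -0.715 and -0.52, so the numbers do not pair the M and R pools there. A blocked fit was still run beside the unpaired one in both lines. Same-position ratios were also taken in both, in OVCAR3 by plate label only. Lengths came from GENCODE 44, which matched 91.1% of symbols, and promoters from RefSeq. Named genes were all members and, of each other list, the genes called in either line or else the smallest p in each line, plus the 3 genes most like each member. G6PC1 was not in the table used here. No sample column was left out.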

Additional observations from a re-analysis of the deposited data

Results flagged for a closer look

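The response to HCQ evolution differed between the lines, by the interaction term of the fit of all 12 pools, for 2 genes of the lists around the pathway, for 1 marker and for none of the 8 enzymes tested. This term called 0.872% of all 12613 genes. The calls were 1 of 5 tested genes of gluconeogenesis, 1 of 18 other hypoxia-inducible genes and 1 of 11 intestinal markers. The change of PCK1, which makes phosphoenolpyruvate in gluconeogenesis, was higher in CCL218 than in OVCAR3 by 3.84 on the log2 scale (standard error 0.59, edgeR adjusted p = 0.0121). PCK1 was at 2.59 ± 0.644 CPM in control and 0.509 ± 0.233 CPM in HCQ-evolved OVCAR3, and at 0.661 ± 0.326 and 1.84 ± 0.305 CPM in CCL218 (SD, n = 3), so every value was low. The change of P4HA2, a collagen prolyl hydroxylase of the hypoxia-inducible list, was higher in CCL218 by 1.01 (standard error 0.20, edgeR adjusted p = 0.0435). It was at 88.9 ± 9.35 CPM in control and 225 ± 28.2 CPM in HCQ-evolved OVCAR3, and at 57.7 ± 2.87 and 294 ± 30.8 CPM in CCL218, and it was above its controls in all 6 HCQ-evolved pools. Of the intestinal markers, the change of CDH17, a cadherin, was higher in CCL218 by 3.71 (standard error 0.50, edgeR adjusted p = 0.00555), from 3.85 ± 1.26 to 52.6 ± 6.67 CPM against 3.34 ± 0.54 and 3.50 ± 1.55 CPM in OVCAR3.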

How the results depend on the processing

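All 5 enzymes above the controls in every HCQ-evolved pool (GPI, TPI1, PGK1, PGAM1 and PKM) kept their direction under all 16 alternatives in each line. Which of them passed did not. In OVCAR3, where 0 of 8 members passed, 5 did in the fit of all 12 pools (4.42% of all genes called higher) and with DESeq2 (4.44%). With the length and GC offset 4 passed (5.08%), 3 with the replicate block together with that offset (1.77%), and 2 with no filter (1.13%). Only 1 passed with filterByExpr (0.703%), limma voom (0.729%) or edgeR without legacy mode (0.860%, an alternative chosen after seeing the data). Without single pools 0 to 3 passed (0.00% to 1.92%). The replicate block called 0 in OVCAR3 (0.139%) and 5 in CCL218 (7.82%). In CCL218 the fit of all 12 pools called GPI, PGK1 and PKM but not TPI1 (2.86%). In that line, 0 to 6 members were called higher without single pools (0.594% to 13.6%) and 0 to 1 lower (0.247% to 11.6%), and DESeq2 called 1 lower (8.72%). Between the control groups, DESeq2 and limma voom called 1 member each (7.34% and 3.58% of all genes). Leaving out single pools called 0 to 1 there, and the share of all genes called in those fits is not given. Of the list of 18 other glycolytic enzymes, 7 were called in OVCAR3 in the fit of all 12 pools (4.42% of all genes called higher and 4.81% lower). The number was 4 with no filter (1.13% and 1.43%) and 8 with DESeq2 (4.44% and 4.62%). It was 1 with the replicate block (0.139% and 0.524%) and 6 with the offset (5.08% and 3.65%). Without single pools it was 0 to 5 (0.00% to 1.92% and 0.0249% to 2.67%), and in CCL218 3 to 7 (0.594% to 13.6% and 0.247% to 11.6%). The numbers moved with the share of all genes called. Apart from PGAM1 in CCL218, the paired fit changed no call of a member in that line.

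Signs that turned belonged to changes that never passed. Without single pools, OVCAR3 GAPDH ranged from -0.083 to 0.34 and GAPDHS from -0.14 to 0.43, and the difference between lines ranged from -0.10 to 0.53 for GAPDH and from -0.25 to 0.13 for BPGM. That of PKM was -0.058 with the offset and -0.038 with block and offset. Between controls, PGAM1 was 0.11 with the offset, 0.11 with block and offset, and -0.36 to 0.15 without single pools, and BPGM was 0.090, 0.090 and -0.25 to 0.13. The cause was not tested. Leaving out both left control pools, also chosen after seeing the data, gave 0 calls of members for the difference between lines and between controls. The share of all genes called in those fits is not given, so these 0 calls cannot be set against it.

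With 3 pools from 1 plate per group, the size of each change rests on few values. GAPDH, PGAM1, PKM, TPI1 and PGK1 have named pseudogenes. Those in the table held at most 0.11% of the counts of TPI1 and 0.125% of those of PGAM1, none of GAPDH, PKM or PGK1 was in it, and reads shared with or lost to them were not measured. Low counts limit GAPDHS and PKLR.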
